A study of Mus musculus with 6 samples.

Results

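The genes described here are 44 components of the machinery that degrades cytoplasmic and nuclear RNA, listed by name in 7 groups: the CCR4-NOT deadenylase, the PAN2-PAN3 deadenylase together with PARN, the decapping complex, the 5′-3′ exonucleases, the LSM ring, the RNA exosome, and factors of nonsense-mediated decay. All 44 were found by their current symbol among the 25206 genes of the table. Alveolar macrophages, which live on the airway side of the lung and clear particles and microbes there, were recovered by lavage from Zcchc6-/- mice (3 arrays) and Zcchc6+/+ mice (3 arrays) without infection or other treatment. Zcchc6 (TUT7) adds uridines to the ends of RNAs, and the comparison asked whether its loss alters the basal transcriptome. The Zcchc6-/- allele lacks loxP-flanked exons after germline excision by an EIIa-cre transgene from a B6.FVB line, and heterozygotes without the transgene were bred to give homozygous mutants. The methods describe mice of both sexes, 8 to 16 weeks old, and the sample labels give neither sex nor age. Neither source used here says whether the Zcchc6+/+ mice of the arrays were littermates, or whether an array holds 1 mouse or a pool. Genes were compared as Zcchc6-/- minus Zcchc6+/+ with limma on the deposited log2 values, with Benjamini-Hochberg adjustment over all 25206 genes.

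Most messenger RNAs are degraded in an ordered way. Deadenylases shorten the poly(A) tail, after which the body is consumed from the 3′ end by the exosome, or the cap is removed by Dcp2 and the RNA is consumed from the 5′ end by Xrn1. A short run of uridines on a shortened tail, the mark that Zcchc6 and its homologue Zcchc11 write, is bound by the LSM ring, which recruits decapping factors, and is also recognised by the exonuclease Dis3l2. Nonsense-mediated decay removes transcripts with a premature stop codon through the helicase Upf1, and the Zcchc6 deletion was designed so that the frame-shifted transcript would be a substrate of this route.

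Transcripts of every group were measured in both genotypes, and none of the 44 passed the test of a difference between them. At an adjusted p under 0.05 limma called 0 members, against 0% of all genes. The members' adjusted p-values lay between 0.997 and 0.999. Without adjustment 0 members passed 0.05 on the higher side, where 2.5% of all genes did, and 0 on the lower side, where 2.53% did. The 95% interval of the difference contained 0 for all 44 members and lay within 1.5-fold in either direction for 42 of them, the exceptions being Lsm4 and Lsm5. For 77.1% of all genes the interval was that narrow. Median log2 fold changes were 0.048 over the members and -0.0063 over all genes, and 32 members (72.7%) had a higher mean in Zcchc6-/- macrophages, against 48.2% of all genes. Without Zcchc6-/- replicate 1, 25 members (56.8%) had a higher mean, against 49.2% of all genes. The members are subunits of shared complexes measured on the same 6 arrays, so these counts are a description.

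**Figure D1:**
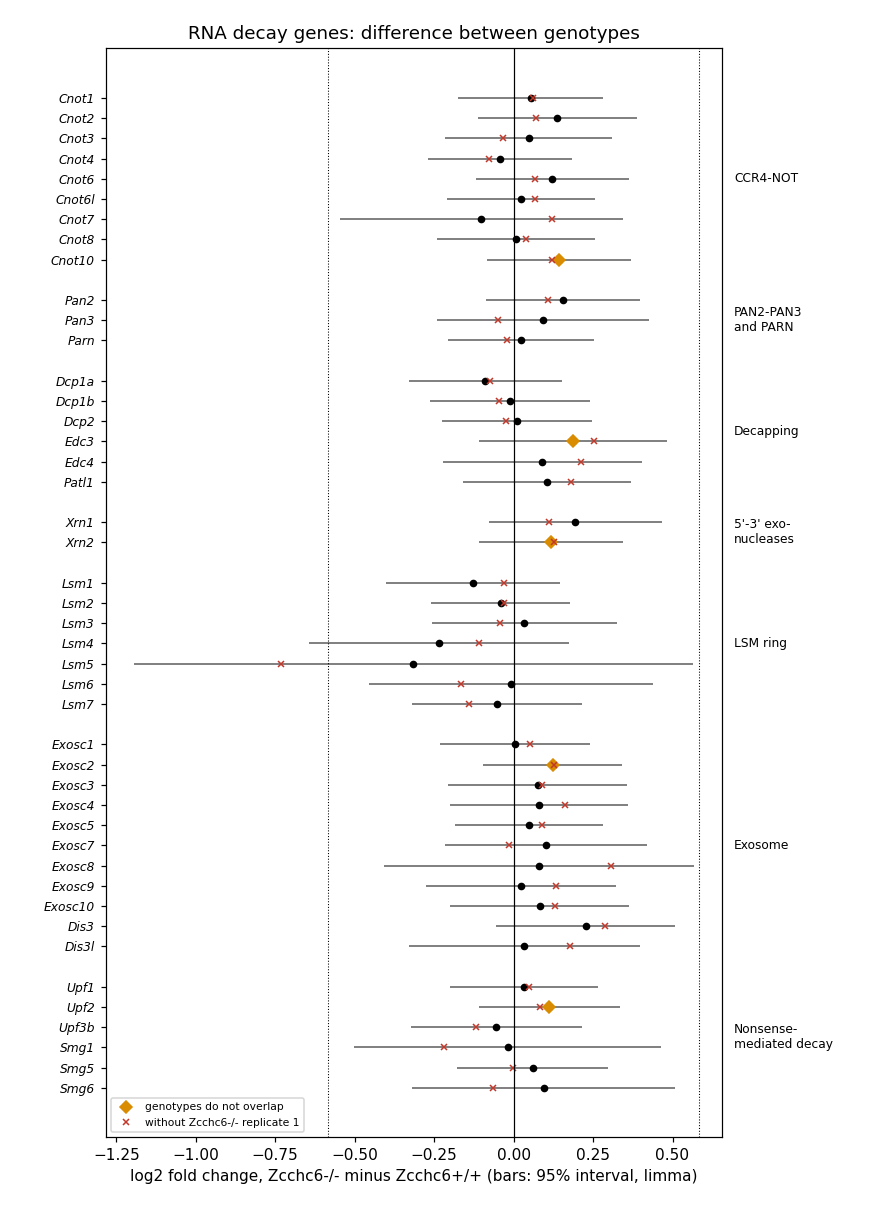
Log2 fold change of each of the 44 members, Zcchc6-/- minus Zcchc6+/+ (black points, with diamonds for the 5 members whose genotypes do not overlap), with 95% intervals from limma as bars and the value without Zcchc6-/- replicate 1 as crosses. Dotted lines mark 1.5-fold, and only the bars of Lsm4 and Lsm5 cross them.

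Zcchc6 mRNA, the target of the deletion, was lower in the Zcchc6-/- arrays. It read 8.22, 7.69 and 8.13 in the Zcchc6-/- arrays, against 8.72, 8.77 and 8.65 in the Zcchc6+/+ arrays. Every Zcchc6-/- value lay below every Zcchc6+/+ value, the difference being -0.70 on the log2 scale (limma standard error 0.15, adjusted p = 0.774). An exact two-sided permutation test gave p = 0.1, the smallest that 3 against 3 allows. Of all genes 5.15% were likewise lower without overlap, and such genes reach the same permutation p. The separation therefore cannot by itself establish the labels. Probe positions are not used here, so signal from within the deleted exons was not separated from signal elsewhere in the gene.

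All 16 measured markers of alveolar macrophages, such as Siglecf, Plet1 and Fabp4, lay above the table median in their mean over the arrays. So did 18 of 18 markers of dividing cells, 10 of 14 epithelial, 8 of 15 T cell and 4 of 10 neutrophil markers. A count above the median therefore does not identify a cell type. Averaged over the list and relative to Zcchc6+/+, the alveolar macrophage markers read -0.053, -0.22 and -0.20 for Zcchc6-/- replicates 1, 2 and 3. For those of Zcchc6+/+ they read -0.052, 0.038 and 0.014. Of the 16, 4 had a higher mean in Zcchc6-/-, and 0 passed an adjusted p under 0.05 in limma. These averages combine shifts in both directions. The genotypes did not overlap for Fabp4, Krt79, Itgax and Lpl, which were lower in Zcchc6-/-, and for Marco, which was higher. Their log2 fold changes were -1.17, -0.47, -0.24, -0.19 and 0.43. Of all genes 5.15% were lower and 5.03% higher in Zcchc6-/- without overlap. The limma interval for Fabp4 was -1.88 to -0.46 (adjusted p = 0.838 from limma). Zcchc6-/- replicate 1 had the lowest mean correlation across genes with the other arrays, 0.982. Zcchc6-/- replicate 2 was next with 0.987, and each of the rest had 0.990. In Zcchc6-/- replicate 1 the T cell markers averaged 2.57 above the Zcchc6+/+ mean on the log2 scale. In the other Zcchc6-/- arrays they averaged -0.19 and -0.10, and the range in Zcchc6+/+ was -0.32 to 0.16. Replicate 1 of Zcchc6-/- was the highest array for 14 of the 15 T cell genes, among them Cd3e and Cd4. Markers of dividing cells, 18 genes such as Mki67, lay 0.36 to 0.47 above the Zcchc6+/+ mean in the Zcchc6-/- arrays, against -0.14 to 0.13 in the Zcchc6+/+ arrays. Neutrophil markers lay 0.020 to 0.24 above the Zcchc6+/+ mean in Zcchc6-/- and -0.064 to 0.044 in Zcchc6+/+ arrays, epithelial markers 0.064 to 0.21 and -0.11 to 0.22, and 0 of 8 B cell and 0 of 4 measured erythroid markers had a mean above the table median. The part of these marker shifts in the members' values was not tested, and fewer cells of a type cannot be told apart from less RNA per cell in such samples. Because nothing in the labels ties each replicate to its own mouse, every p-value reflects array-to-array spread alone, part of which may be technical.

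In Zcchc6+/+ macrophages 43 of the 44 members had a mean signal above the table median of 4.41, and Lsm5 was the exception with 3.95. Values for different genes come from different probes, so their order is not an order of transcript abundance. Within a genotype the members varied little. The median standard deviation between arrays of a genotype was 0.12 for the members, against 0.17 for all genes and 0.15 for genes above the table median.

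**Figure D2:**
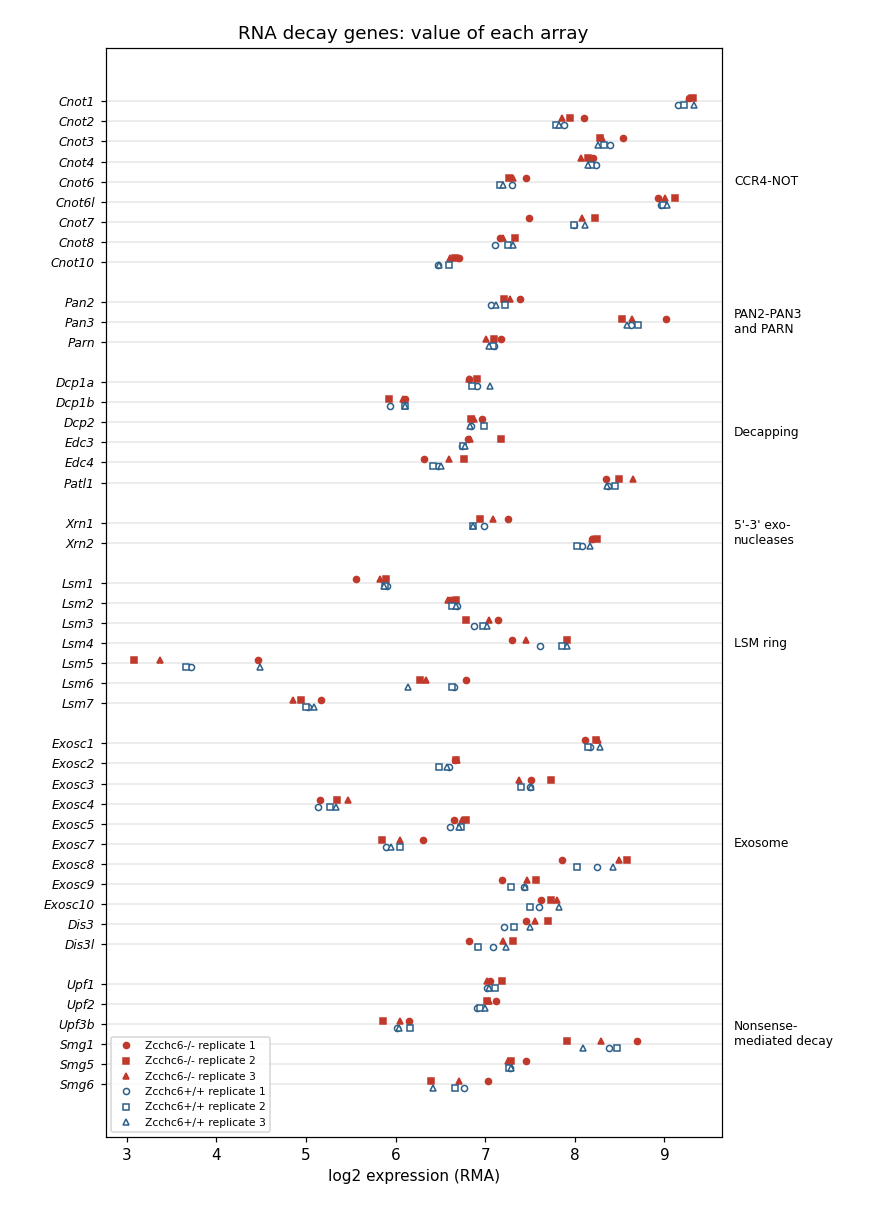
Log2 expression (RMA) of the 44 members in each array, by complex, with Zcchc6-/- arrays as filled red symbols above the open blue symbols of Zcchc6+/+. The symbols of the genotypes intermix for most members, and Lsm5, at 3.08 to 4.48, is the member with the widest spread.

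The CCR4-NOT complex, which carries out most cytoplasmic deadenylation, had 9 members, with mean log2 signals from 6.66 to 9.29 in Zcchc6-/- and from 6.52 to 9.23 in Zcchc6+/+ macrophages. Its median log2 fold change was 0.047, with 7 means higher and 2 lower. Cnot1, the scaffold on which the other subunits assemble, averaged 9.29 ± 0.023 in Zcchc6-/- and 9.23 ± 0.085 in Zcchc6+/+ macrophages (SD, n = 3 each). The NOT-module subunits Cnot2 and Cnot3 had log2 fold changes of 0.14 (95% interval -0.11 to 0.39) and 0.047 (-0.22 to 0.31). Cnot4, a ubiquitin ligase that associates with the complex, had -0.044 (-0.27 to 0.18).

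The catalytic subunits come as paralogue pairs, and all 4 had intervals that spanned 0. Of the exonuclease-endonuclease-phosphatase type, Cnot6 had a log2 fold change of 0.12 (95% interval -0.12 to 0.36) and Cnot6l 0.024 (-0.21 to 0.26). Of the DEDD type, Cnot8 had 0.0075 (-0.24 to 0.26). Cnot7, its paralogue, read 7.49, 8.22 and 8.08 in Zcchc6-/- macrophages, against 7.99, 7.99 and 8.11 in Zcchc6+/+ macrophages. The first Zcchc6-/- array was thus the lowest of the 6 and the second the highest, and the groups overlapped. Its log2 fold change was -0.10 (95% interval -0.55 to 0.34) with all arrays and 0.12 without Zcchc6-/- replicate 1, in which T cell markers were high.

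Cnot10, an accessory subunit bound to the N-terminal part of Cnot1, read 6.71, 6.66 and 6.61 in Zcchc6-/- macrophages, against 6.48, 6.59 and 6.49 in Zcchc6+/+ macrophages. All values of Zcchc6-/- lay above those of Zcchc6+/+, by 0.021 at the closest pair. The log2 fold change was 0.14 (95% interval -0.082 to 0.37, adjusted p = 0.997 from limma).

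The other deadenylases are the PAN2-PAN3 complex, which trims long tails, and Parn, a poly(A)-specific ribonuclease that also matures telomerase RNA. Pan2, the catalytic subunit, averaged 7.29 ± 0.092 in Zcchc6-/- and 7.14 ± 0.078 in Zcchc6+/+ macrophages (SD, n = 3 each), with a log2 fold change of 0.16 (95% interval -0.087 to 0.40). Pan3, which brings Pan2 to the RNA, read 9.01, 8.52 and 8.64 in Zcchc6-/- against 8.62, 8.70 and 8.58 in Zcchc6+/+ macrophages. Only the first Zcchc6-/- array was above the Zcchc6+/+ range, and the log2 fold change of 0.093 became -0.050 without it. Parn had 0.022 (-0.21 to 0.25) with all arrays.

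Decapping commits an mRNA to decay from its 5′ end. Its enzyme Dcp2 read 6.96, 6.85 and 6.87 in Zcchc6-/- macrophages, against 6.84, 6.99 and 6.83 in Zcchc6+/+ macrophages. The groups overlapped throughout, with a log2 fold change of 0.010 (95% interval -0.23 to 0.25), and the sign of so small a value turned with the scaling of the arrays. Its activators Dcp1a and Dcp1b had -0.089 (-0.33 to 0.15) and -0.012 (-0.26 to 0.24), and the sign for Dcp1b was positive once array medians were centred. Edc4, the scaffold that holds Dcp1 and Dcp2 together, had 0.090 (-0.22 to 0.40), and Patl1, which links the LSM ring to decapping, 0.10 (-0.16 to 0.37).

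Edc3, an enhancer of decapping and a component of processing bodies, read 6.81, 7.18 and 6.83 in Zcchc6-/- macrophages, against 6.74, 6.75 and 6.77 in Zcchc6+/+ macrophages. The genotypes did not overlap, but the difference came mostly from the second Zcchc6-/- array. The closest pair of values from different genotypes was 0.040 apart. The log2 fold change was 0.19 (95% interval -0.11 to 0.48, adjusted p = 0.997 from limma).

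Both 5′-3′ exonucleases had higher means in Zcchc6-/- macrophages, with neither past the threshold. Xrn1, which degrades decapped mRNA in the cytoplasm, read 7.26, 6.95 and 7.08 in Zcchc6-/- against 6.98, 6.86 and 6.86 in Zcchc6+/+ macrophages. The second Zcchc6-/- value lay within the Zcchc6+/+ range, and the log2 fold change was 0.19 (95% interval -0.078 to 0.47), or 0.11 without Zcchc6-/- replicate 1. Xrn2, the nuclear enzyme that acts in transcription termination, read 8.19, 8.25 and 8.19 in Zcchc6-/- against 8.08, 8.02 and 8.17 in Zcchc6+/+ macrophages. Its genotypes did not overlap, although the closest pair of values was only 0.015 apart, and the log2 fold change was 0.12 (-0.11 to 0.34, adjusted p = 0.997 from limma).

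The LSM ring was the group whose median log2 fold change was negative, with no member past the threshold. The ring of Lsm1 to Lsm7 binds the 3′ end of deadenylated and uridylated mRNA, whereas a nuclear ring has Lsm8 in place of Lsm1 and binds U6 small nuclear RNA. Of its 7 members 6 had a lower mean in Zcchc6-/- macrophages, and the median was -0.053. Without Zcchc6-/- replicate 1 the means of all 7 were lower with a median of -0.11, and without Zcchc6-/- replicate 3 those of 4 were, with a median of -0.022. Lsm1, particular to the cytoplasmic ring, read 5.56, 5.89 and 5.82 in Zcchc6-/- against 5.90, 5.89 and 5.88 in Zcchc6+/+ macrophages. Only the first Zcchc6-/- array was clearly below the rest. Its log2 fold change was -0.13 (95% interval -0.40 to 0.14) with all arrays and -0.029 without that one.

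Among the subunits shared by both rings, Lsm2 and Lsm7 had log2 fold changes of -0.041 (95% interval -0.26 to 0.18) and -0.053 (-0.32 to 0.21). Lsm3 had 0.034 (-0.26 to 0.32), and Lsm6 -0.0074 (-0.45 to 0.44), which was positive with array medians centred. Lsm4 read 7.30, 7.91 and 7.46 in Zcchc6-/- against 7.61, 7.85 and 7.91 in Zcchc6+/+ macrophages. Zcchc6-/- replicates 1 and 3 were below the Zcchc6+/+ range and replicate 2 within it, for a log2 fold change of -0.24 (-0.64 to 0.17, adjusted p = 0.997 from limma). Without Zcchc6-/- replicate 1 the Lsm4 value was -0.11.

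Lsm5 was the least certain of all members. It read 4.47, 3.08 and 3.37 in Zcchc6-/- macrophages, against 3.72, 3.66 and 4.48 in Zcchc6+/+ macrophages, and was the only member below the table median. Each genotype held 1 array that was far above the other 2, and the standard deviation within a genotype was 0.61. The log2 fold change was -0.32 (95% interval -1.20 to 0.56, adjusted p = 0.998 from limma). Without Zcchc6-/- replicate 1 it was -0.73, with an unadjusted p of 0.0257 and an adjusted p of 0.775 from limma.

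The exosome, a ring of inactive subunits that threads RNA into its exonucleases, had 11 members here. The mean of each was higher in Zcchc6-/- macrophages, 11 of 11, by 0.0048 to 0.23 on the log2 scale with a median of 0.079. None passed the test, and the count depended on single arrays. It was 10, 6 and 7 of 11 without Zcchc6-/- replicate 1, 2 or 3, and 10, 7 and 11 without Zcchc6+/+ replicate 1, 2 or 3. The median was 0.017 without Zcchc6-/- replicate 2, where Exosc1, Exosc3, Exosc8, Exosc9 and Dis3l had lower means, and 0.13 without Zcchc6-/- replicate 1. The means of the 11 genes over the Zcchc6+/+ mean were -0.040, 0.16 and 0.12 in Zcchc6-/- replicates 1, 2 and 3, against -0.029, -0.060 and 0.089 in those of Zcchc6+/+. The first Zcchc6-/- array therefore lay within the Zcchc6+/+ range and the other ones above it.

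Of the cap subunits, which bind incoming RNA, Exosc1 had a log2 fold change of 0.0048 (95% interval -0.23 to 0.24) and Exosc3 0.076 (-0.21 to 0.36). Exosc2, also of the cap, read 6.66, 6.67 and 6.68 in Zcchc6-/- against 6.60, 6.48 and 6.57 in Zcchc6+/+ macrophages. It had the closest agreement between Zcchc6-/- arrays of any member, 0.0094 (SD, n = 3), and no overlap between genotypes, with a gap of 0.068. The log2 fold change was 0.12 (-0.097 to 0.34, adjusted p = 0.997 from limma).

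Of the ring subunits, Exosc4, Exosc5 and Exosc7 had log2 fold changes of 0.080, 0.048 and 0.10. Exosc8 read 7.85, 8.58 and 8.49 in Zcchc6-/- against 8.25, 8.02 and 8.42 in Zcchc6+/+ macrophages. The first Zcchc6-/- array was the lowest of the 6 and the other Zcchc6-/- arrays the highest, so that the log2 fold change was 0.079 (95% interval -0.41 to 0.57) with all arrays and 0.31 without that one. Exosc9 had 0.023 (-0.28 to 0.32), and its annotated span overlaps that of Ccna2, a cyclin gene among the markers of dividing cells.

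The catalytic subunits are 3 exonucleases. Dis3, the processive nuclear enzyme, read 7.45, 7.70 and 7.56 in Zcchc6-/- against 7.21, 7.33 and 7.49 in Zcchc6+/+ macrophages. The lowest Zcchc6-/- array lay just below the highest Zcchc6+/+ array. Its log2 fold change of 0.23 (1.17-fold, 95% interval on the log2 scale -0.055 to 0.51) was the highest of the 44, with the smallest unadjusted p, 0.0996, and an adjusted p of 0.997 from limma. Dis3l, the cytoplasmic enzyme, had 0.033 (-0.33 to 0.40) and Exosc10, the distributive nuclear enzyme, 0.082 (-0.20 to 0.36).

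The 6 nonsense-mediated decay factors had log2 fold changes of -0.054 to 0.11. Their median was 0.046 with all arrays and -0.033 without Zcchc6-/- replicate 1. Upf1, the central helicase, averaged 7.09 ± 0.086 in Zcchc6-/- and 7.06 ± 0.043 in Zcchc6+/+ macrophages (SD, n = 3 each), with a log2 fold change of 0.032 (95% interval -0.20 to 0.26). Upf2, which bridges Upf1 to the exon junction complex, read 7.12, 7.02 and 7.04 in Zcchc6-/- against 6.91, 6.94 and 6.99 in Zcchc6+/+ macrophages. The genotypes did not overlap, with a gap of 0.027 and a log2 fold change of 0.11 (-0.11 to 0.33, adjusted p = 0.997 from limma). Upf3b, its partner at the junction, had -0.054 (-0.32 to 0.22).

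Smg1, the kinase that phosphorylates Upf1, read 8.70, 7.91 and 8.29 in Zcchc6-/- against 8.39, 8.47 and 8.09 in Zcchc6+/+ macrophages. The Zcchc6-/- arrays held both the highest and the lowest of the 6 values, and the log2 fold change was -0.018 (95% interval -0.50 to 0.46). Smg6, the endonuclease of the pathway, had the same order among the Zcchc6-/- arrays, at 7.03, 6.39 and 6.70, against 6.76, 6.66 and 6.42 in Zcchc6+/+ macrophages. Its log2 fold change was 0.095 (-0.32 to 0.51). Smg5, an adaptor for dephosphorylation of Upf1, had 0.060 (-0.18 to 0.30), and -0.0021 without Zcchc6-/- replicate 1.

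Variation among the Zcchc6-/- arrays was thus larger than the difference between genotypes for several members. The standard deviation was larger in Zcchc6-/- than in Zcchc6+/+ for 34 of the 44, and for 64.5% of all genes. Zcchc6-/- replicate 1 held the highest or the lowest of the 6 values for 26 members (59.1%, against 48.3% of all genes) and Zcchc6-/- replicate 2 for 21 (47.7%, against 39.9%). Lsm5, Smg1, Smg6 and Lsm6 were over 0.5 higher in replicate 1 than in replicate 2 of Zcchc6-/-, with differences of 1.39, 0.79, 0.63 and 0.51 on the log2 scale. Cnot7, Exosc8 and Lsm4 were lower in replicate 1 by as much, with differences of -0.74, -0.73 and -0.61. Members of 1 complex did not all share a direction there, since Cnot3 was 0.25 higher in replicate 1 while Cnot7 was lower.

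**Figure D3:**
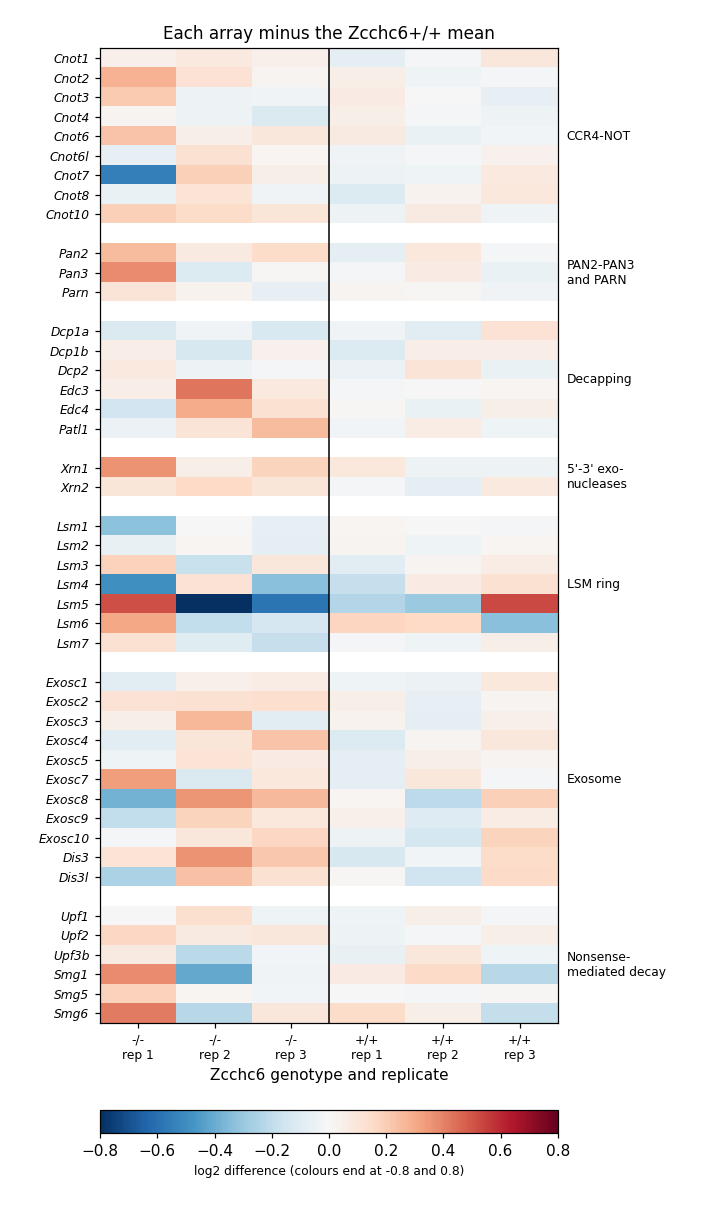
Each member's log2 value minus its Zcchc6+/+ mean, for the 3 Zcchc6-/- arrays (left) and the 3 Zcchc6+/+ arrays (right); red is higher and blue lower. Zcchc6-/- replicates 1 and 2 often carry opposite colours, with replicate 1 minus replicate 2 at -0.74 for Cnot7 and 1.39 for Lsm5, and Lsm5 has strong colours in both genotypes.

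The members without overlap between genotypes were Cnot10, Edc3, Xrn2, Exosc2 and Upf2. All 5 were higher in Zcchc6-/- macrophages, which is 5 of 44 against 5.03% of all genes, while 0 members were lower without overlap, against 5.15% of all genes. The gaps between the closest values of the genotypes were 0.015 to 0.068, smaller than the median spread between arrays of 1 genotype, and none of the 5 passed limma without adjustment. They belong to different complexes. With the arrays scaled again by quantiles 8 members were higher and 3 lower without overlap, among them 4 of these 5, where 10.5% of all genes did not overlap in either direction. With array medians centred 7 were higher, again with 4 of the 5, where 10.1% of all genes did not overlap, and the share as deposited was 10.2%.

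As deposited, the genotypes did not overlap for 10.2% of all genes in either direction, so separation was not particular to these members. The promoters of these 5 genes are shown because they were the members whose genotypes separated. They come from RefSeq (GRCm38.p6), each running from 250 bases before the annotated start through the first 50 bases of the transcript, 5′ to 3′ on the gene's strand. The windows are chr9:114640151-114640450 on the minus strand for Cnot10, chr9:57708319-57708618 on the plus strand for Edc3, and chr2:147012749-147013048, chr2:31670465-31670764 and chr2:5951219-5951518 on the plus strand for Xrn2, Exosc2 and Upf2. Capitals mark exact matches, on either strand, to the 6 motifs CCGGAA (the core bound by ETS factors), CTCGCGAG, GCATGCGC (part of the NRF1 motif), AAGATGGC (the YY1 motif), CCAAT and TATAAA, and no marked stretch overlapped another.
Cnot10: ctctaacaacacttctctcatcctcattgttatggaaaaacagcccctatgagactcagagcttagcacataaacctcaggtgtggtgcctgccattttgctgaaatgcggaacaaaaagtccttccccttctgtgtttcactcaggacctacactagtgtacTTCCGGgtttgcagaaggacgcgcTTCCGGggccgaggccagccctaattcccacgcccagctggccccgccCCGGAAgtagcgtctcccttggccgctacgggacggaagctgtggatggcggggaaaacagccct
Edc3: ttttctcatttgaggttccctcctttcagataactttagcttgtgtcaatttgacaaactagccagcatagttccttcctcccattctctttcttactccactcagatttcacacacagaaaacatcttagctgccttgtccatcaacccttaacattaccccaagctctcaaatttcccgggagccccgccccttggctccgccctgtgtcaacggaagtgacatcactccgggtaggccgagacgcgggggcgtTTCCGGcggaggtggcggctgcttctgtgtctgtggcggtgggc
Xrn2: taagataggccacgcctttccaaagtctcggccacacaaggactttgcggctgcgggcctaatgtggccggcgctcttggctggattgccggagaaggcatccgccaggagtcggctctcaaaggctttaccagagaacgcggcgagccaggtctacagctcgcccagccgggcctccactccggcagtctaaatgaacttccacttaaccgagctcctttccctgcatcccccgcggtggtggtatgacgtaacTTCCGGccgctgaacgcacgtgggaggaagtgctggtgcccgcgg
Exosc2: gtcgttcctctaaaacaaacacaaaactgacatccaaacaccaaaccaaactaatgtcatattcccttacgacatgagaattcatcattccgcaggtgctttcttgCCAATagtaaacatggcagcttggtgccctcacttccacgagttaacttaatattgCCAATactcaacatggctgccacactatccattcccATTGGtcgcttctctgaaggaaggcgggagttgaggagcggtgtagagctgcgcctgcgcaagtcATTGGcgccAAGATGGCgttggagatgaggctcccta
Upf2: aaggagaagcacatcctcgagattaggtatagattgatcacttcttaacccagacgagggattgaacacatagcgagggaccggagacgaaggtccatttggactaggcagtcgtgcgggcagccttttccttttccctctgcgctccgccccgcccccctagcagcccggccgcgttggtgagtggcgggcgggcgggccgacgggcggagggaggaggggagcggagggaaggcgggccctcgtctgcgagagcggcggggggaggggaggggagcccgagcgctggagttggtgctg

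Cnot10 held 3 matches to CCGGAA or its complement, and Edc3 and Xrn2 held 1 each close to the start. Exosc2 held 4 CCAAT matches and 1 AAGATGGC, and Upf2 held none of the 6 motifs, so the 5 genes had no motif in common. Their CG counts were 14 for Cnot10, 13 for Edc3, 25 for Xrn2, 11 for Exosc2 and 27 for Upf2.

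Over all members, RefSeq promoters were matched for 37 of the 44, leaving out Cnot1, Cnot7, Dcp2, Exosc4, Exosc9, Lsm1 and Lsm4, and the first listed promoter of each gene was used. The number of CG dinucleotides in the 300 bases ranged widely, from 3 to 49, with a median of 25 against 14 over the 17708 measured genes with a promoter, and TATAAA was found in 0 of 37 against 12.7%. CCGGAA stood in 12 of the 37 (32.4%, against 19.1%), among them Exosc3, Exosc10, Dis3, Dcp1a, Dcp1b, Edc4, Upf1, Parn and Lsm5. GCATGCGC and AAGATGGC stood in 5 each (13.5%, against 3.71% and 3.30%), and CTCGCGAG in 3, namely Exosc10, Dis3 and Upf3b (8.11%, against 1.30%). CCAAT was as frequent as elsewhere, in 14 (37.8%, against 38.8%). The comparison genes were not matched to the members for CG count, and CCGGAA, GCATGCGC and CTCGCGAG each contain CG. Whether the motif shares differ beyond CG content was not tested. A match is a description of letters and not of a factor bound in these cells.

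Beyond the 44 members, 55 other genes of the same pathways were measured, and 0 had an adjusted p under 0.05. Without adjustment 1 was higher (Eif4a3) and 2 were lower (Pelo and Angel1), a share of the 55 near that of all genes (2.5% higher and 2.53% lower). The genotypes did not overlap for 5 partners on the higher side and 2 on the lower, where 5.03% and 5.15% of all genes did not, and Eif4a3, Pelo and Angel1 were among these. Their median log2 fold change was 0.036, with 34 of 55 means higher in Zcchc6-/- macrophages.

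Eif4a3, the helicase that anchors the exon junction complex on spliced mRNA, read 6.28, 6.63 and 6.66 in Zcchc6-/- against 5.92, 5.86 and 6.04 in Zcchc6+/+ macrophages. Every Zcchc6-/- array was above every Zcchc6+/+ array without exception. The log2 fold change was 0.58 (95% interval 0.27 to 0.89, adjusted p = 0.774 from limma) and 0.70 without Zcchc6-/- replicate 1. Its partners in the junction complex had smaller values, 0.26 for Magoh, -0.034 for Rbm8a and -0.024 for Casc3 (adjusted p = 0.997, 0.999 and 0.998 from limma). Without Zcchc6-/- replicate 1 these were 0.39 for Magoh, 0.11 for Rbm8a and 0.0093 for Casc3. How well the probes separate Eif4a3 from related sequences was not examined.

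Pelo, which rescues stalled ribosomes together with Hbs1l and so gives the exosome access to such mRNAs, read 5.73, 5.68 and 5.82 in Zcchc6-/- against 6.08, 6.16 and 6.05 in Zcchc6+/+ macrophages. The arrays of a genotype were close together and the genotypes were separate, with a log2 fold change of -0.35 (95% interval -0.58 to -0.12, adjusted p = 0.902 from limma). The gene lies within the annotated span of Itga1, and probes in shared stretches were not examined. Hbs1l itself had 0.056 (adjusted p = 0.998). Angel1, of the CCR4-related nuclease family, read 5.21, 5.65 and 5.45 in Zcchc6-/- against 5.79, 5.67 and 5.95 in Zcchc6+/+ macrophages, with a log2 fold change of -0.37 (95% interval -0.70 to -0.031, adjusted p = 0.981 from limma).

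Among the other partners, Dis3l2, Ddx6, Lsm8 and Exosc6 had intervals that spanned 0. Dis3l2, the exonuclease that prefers uridylated RNA, read 6.93, 6.69 and 6.80 in Zcchc6-/- against 6.81, 6.82 and 6.64 in Zcchc6+/+ macrophages, with a log2 fold change of 0.049 (95% interval -0.21 to 0.31). Ddx6, the helicase that joins deadenylation to decapping, had -0.0067 (-0.31 to 0.30) and turned positive under both other scalings of the arrays. Lsm8, which replaces Lsm1 in the nuclear ring, had -0.026 (-0.28 to 0.22), and Exosc6, the remaining ring subunit of the exosome, 0.036 (-0.18 to 0.25).

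**Figure D4:**
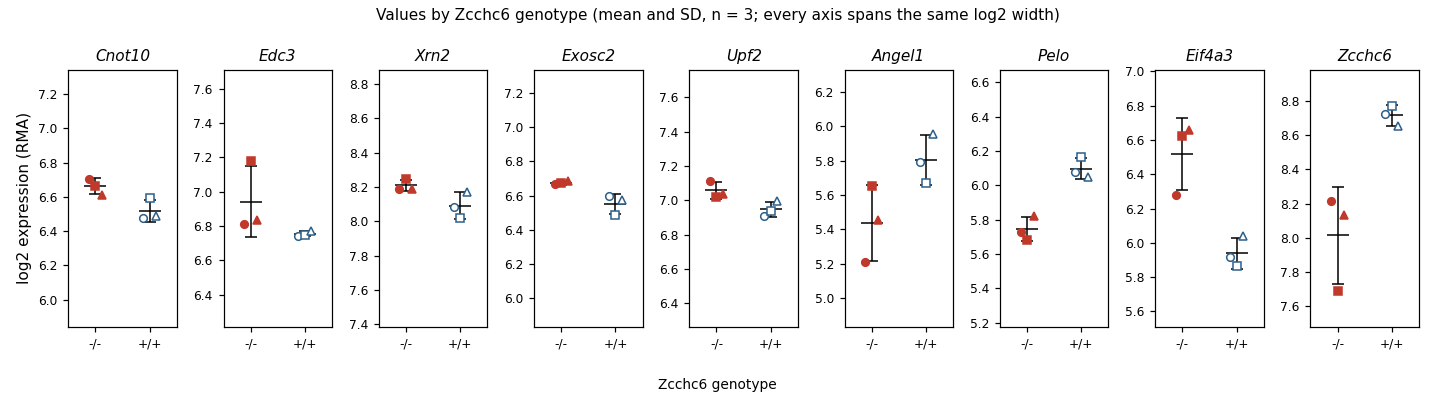
Log2 expression (RMA) in Zcchc6-/- (left of each panel, red) and Zcchc6+/+ (right, open blue) arrays, with mean and SD (n = 3), for the 5 members without overlap, then Angel1, Pelo and Eif4a3, and Zcchc6. The panels share 1 axis width, so the shift of Zcchc6 (-0.70) and of Eif4a3 (0.58) can be set beside those of the 5 members drawn, the highest of which is 0.19.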

How the data were processed

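Alveolar macrophage RNA was hybridised to Affymetrix Mouse Gene ST 2.0 arrays. The authors deposited log2 values per Entrez Gene made with RMA in affy 1.36.1 (R 2.15.1), which corrects background, gives the arrays a common distribution by quantiles and summarises the probes of each gene, so no probe-level detail or detection call is held and shifts shared by all genes are removed. No genome build for the probe mapping is given in the sources used here. Genes were named through the platform annotation and a RefSeq table (GRCm38.p6), and 23740 of 25206 had a symbol. No pair of arrays shared over 0.298% of values.

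All genes were fitted with limma 3.58.1 in R 4.3.3 (lmFit and eBayes, no covariate or filter, 4 residual and 3.47 prior degrees of freedom), Zcchc6-/- minus Zcchc6+/+, with Benjamini-Hochberg adjustment over all genes. Intervals are 95% moderated intervals. The procedure was tested on simulated data with changes larger than that of any member. It was not tested at the sizes seen for the members. Members, complexes, pathway partners and marker lists were chosen with earlier results of these data known. Members are given per array where the unadjusted p was under 0.05 or the genotypes did not overlap. Further members shown per array (such as Dis3, Lsm5, Cnot7 and Smg1) were chosen after their values were seen. Partners are named at an unadjusted p under 0.05, plus Dis3l2 and Ddx6, with Hbs1l, Magoh, Rbm8a, Casc3, Lsm8 and Exosc6 added later. For 23 of the 44 members another RefSeq gene overlaps the annotated span, and probes in shared stretches were not examined. Alternatives were a filter on low values, other variance models, array weights, other scalings, a replicate block, the Xist level as a covariate and each array left out. The number of arrays limits the precision.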

Additional observations from a re-analysis of the deposited data

How the results depend on the processing

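Under 15 alternatives 0 members and 0 pathway partners passed an adjusted p under 0.05 in limma, the lowest adjusted p of a member being 0.737. Without adjustment 2 to 4 of the 55 partners passed, Pelo and Eif4a3 each time, where 3.55% to 6.93% of all genes did. Unadjusted, 3 of the 44 members were higher with unmoderated variances (Cnot10, Exosc2 and Upf2), where 5.30% of all genes passed in either direction. With an array left out 0 to 1 were lower. These were Lsm5 without Zcchc6-/- replicate 1, where 5.96% of all genes passed, and Lsm4 without Zcchc6-/- replicate 2, where 6.49% did. The count of 5 members without overlap was 11 with a second quantile normalization and 7 to 14 with an array left out, where 17.6% to 22.1% of all genes did not overlap. It was 14, 13 and 9 when replicate 1, 2 or 3 of Zcchc6-/- was left out, and 9, 7 and 8 when replicate 1, 2 or 3 of Zcchc6+/+ was. Leaving out an array cannot make separate groups overlap, so these counts cannot fall below 5. The Zcchc6 log2 fold change stayed between -0.80 and -0.54. Angel1 did not pass unadjusted with unmoderated variances, with array medians centred, or when replicate 1 or 3 of either genotype was left out. The median over members was 0.039 to 0.062 with an array left out, that of CCR4-NOT 0.016 (without Zcchc6+/+ replicate 1) to 0.068, and that of PAN2-PAN3 and PARN -0.019 (without Zcchc6-/- replicate 1) to 0.19. That of nonsense-mediated decay factors was -0.033 (without Zcchc6-/- replicate 1) to 0.11, of the exosome 0.017 to 0.13 and of the LSM ring -0.11 to -0.022. The cause of these moves was not tested.

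Direction held for 21 members, 15 higher and 6 lower, under each alternative in which they were fitted, which is 14 for Lsm5, left out by the filter on low values. With an array left out the log2 fold changes that changed sign ranged from -0.035 to 0.092 for Cnot3, -0.025 to 0.068 for Cnot6l, -0.25 to 0.12 for Cnot7, -0.048 to 0.049 for Cnot8, -0.050 to 0.19 for Pan3, -0.019 to 0.066 for Parn, -0.068 to 0.045 for Dcp1b, -0.025 to 0.061 for Dcp2 and -0.014 to 0.21 for Edc4. For the LSM ring they ranged from -0.043 to 0.14 for Lsm3, -0.17 to 0.088 for Lsm6 and -0.14 to 0.014 for Lsm7. For the exosome they ranged from -0.022 to 0.050 for Exosc1, -0.020 to 0.16 for Exosc3, -0.015 to 0.21 for Exosc7, -0.058 to 0.31 for Exosc8, -0.056 to 0.13 for Exosc9 and -0.067 to 0.18 for Dis3l. For decay factors they ranged from -0.017 to 0.065 for Upf1, -0.12 to 0.027 for Upf3b, -0.22 to 0.18 for Smg1, -0.0021 to 0.0997 for Smg5 and -0.064 to 0.25 for Smg6, and among the partners named in the text from -0.078 to 0.081 for Ddx6, -0.012 to 0.11 for Dis3l2, -0.14 to 0.11 for Rbm8a, -0.053 to 0.011 for Casc3 and -0.099 to 0.016 for Lsm8. In all, 26 of the 55 partners changed sign with an array left out. Array weights gave -0.00010 for Cnot3, -0.020 for Parn, 0.0085 for Dcp1b, -0.0072 for Dcp2 and 0.035 for Ddx6. A second quantile normalization gave -0.0057 for Dcp2 and 0.025 for Ddx6, and centred medians gave 0.0048 for Dcp1b, 0.0095 for Lsm6 and 0.010 for Ddx6.

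The labels do not say whether the replicate numbers pair the arrays. Deviations of same-numbered arrays correlated at 0.090, -0.23 and 0.046 across genes, and those of unlike-numbered arrays at -0.26 to 0.26. With so few arrays per genotype these values cannot decide whether arrays were paired. With the replicate block 0 members passed with or without adjustment, the Zcchc6 log2 fold change was -0.70, and Angel1 no longer passed an unadjusted p under 0.05 (2 partners did, Eif4a3 and Pelo, against 3 without the block). Lsm5, the only member below the table median, had the widest spread of the members and is the least certain.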
